A study of Mus musculus with 8 samples.

Results

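The 9 genes described here had much lower RNA levels in conventionalized than in germ-free mice and that lie outside the classic marker lists of intestinal cell types: Pcp4l1, Lrrn1, Synpo, Rasal2, Sh3kbp1, Tmprss6, Plk5, Serpina1c and Adcy2. They are 9 of the 48440 genes of the table. They were chosen by their CPM in the 2 groups, so that difference is given here as a description, without a test. The rule did not use the spread of the libraries within each group, and the tests of the 9 genes below are on that spread. Calls of other genes below come from the same comparison of the 2 groups that chose the 9.

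The mice were female, carried the Sox9-EGFP reporter on a C57BL/6J background and were born germ-free, in 4 pairs of littermates (A to D). At an age of 8 to 10 weeks, 1 animal of each pair was moved to another animal house and given a slurry of feces from the conventionally housed Sox9-EGFP colony by gavage. Both littermates were killed 2 weeks later, the germ-free animal having stayed in the gnotobiotic facility, and the change of house cannot be told apart from the microbes. RNA came from jejunal epithelial cells sorted for a low level of the reporter (Sox9-EGFP Low), after removal of cells that stained for Annexin-V (dying cells), CD31 (endothelium), CD45 (leukocytes) or with Sytox-blue (dead cells). The reporter marks cells by the activity of Sox9, a transcription factor of crypt progenitors, and not by a single cell type. There was 1 library per animal, 4 per group.

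Enteroendocrine cells are scattered hormone-secreting cells of the gut epithelium that arise from crypt progenitors. Neurod1 is a transcription factor of their differentiation, and Chga encodes chromogranin A, a protein of their secretory granules. Both genes served as references for the 9 genes, by the rule that chose them. Levels are in CPM, the deposited value scaled to a common library total, and differences are on the scale of log2(CPM + 0.5), conventionalized minus germ-free.

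The 8 libraries held approximately 6209041 to 19139683 reads. Sox9 itself had 377.8 ± 109.3 CPM in the conventionalized and 245.8 ± 82.8 CPM in the germ-free animals (SD, n = 4 each), and 12 of 12 stem cell markers reached the minimum level for testing. None of the 9 leukocyte markers did, and their sum was 9.83 to 29.0 CPM over the 8 libraries. Of 26 enteroendocrine markers, 16 were lower in conventionalized animals by limma (20 with the littermate pair as a term), and their sum was 11870 to 29130 CPM against 47000 to 111800 CPM. Pair C's germ-free library was the least like its group, with a median correlation of 0.792 with its group, against 0.871 to 0.943 in the other 7. The conventionalized library of pair A had 50890 CPM of goblet markers in sum, against 1581 to 8201 CPM in the others.

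The stretches before the transcription start are shown for 4 of the 9 genes and for the gene whose levels followed Serpina1c most closely, Serpina1e. Aligned end to end, with unmatched ends counted as differences, the stretches of the 2 Serpina1 copies are 63.1% identical. The stretches let these copies be read beside unrelated genes. Each runs over the 250 bases before the RefSeq start, 5′ to 3′ on the strand of the gene, in build GRCm38.p6, and capitals mark the letters GTTAAT, which match part of the binding motif of the liver and gut factor Hnf1. The positions are chr12:103904951-103905200 (minus strand) for Serpina1c, chr12:103956898-103957147 (minus strand) for Serpina1e, chr10:80356209-80356458 (plus strand) for Plk5, chr1:171196269-171196518 (minus strand) for Pcp4l1 and chr1:157412596-157412845 (minus strand) for Rasal2.
Serpina1c: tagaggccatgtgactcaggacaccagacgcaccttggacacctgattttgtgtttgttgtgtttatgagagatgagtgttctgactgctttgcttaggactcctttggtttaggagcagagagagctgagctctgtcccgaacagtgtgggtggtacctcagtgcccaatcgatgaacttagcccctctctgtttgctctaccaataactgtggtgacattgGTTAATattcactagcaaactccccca
Serpina1e: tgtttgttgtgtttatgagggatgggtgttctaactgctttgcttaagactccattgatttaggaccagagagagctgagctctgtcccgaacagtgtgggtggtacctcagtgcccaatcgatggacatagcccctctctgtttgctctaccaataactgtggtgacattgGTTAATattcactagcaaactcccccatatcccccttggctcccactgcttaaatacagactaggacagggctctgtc
Plk5: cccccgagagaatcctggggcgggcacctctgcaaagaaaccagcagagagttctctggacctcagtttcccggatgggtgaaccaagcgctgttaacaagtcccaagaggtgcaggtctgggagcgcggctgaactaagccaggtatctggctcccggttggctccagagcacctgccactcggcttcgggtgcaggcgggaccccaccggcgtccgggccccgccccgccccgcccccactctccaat
Pcp4l1: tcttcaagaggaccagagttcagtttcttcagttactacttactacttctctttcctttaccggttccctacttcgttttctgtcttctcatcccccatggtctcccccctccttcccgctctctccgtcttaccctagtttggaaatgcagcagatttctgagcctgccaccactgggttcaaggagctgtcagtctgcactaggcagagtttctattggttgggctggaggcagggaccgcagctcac
Rasal2: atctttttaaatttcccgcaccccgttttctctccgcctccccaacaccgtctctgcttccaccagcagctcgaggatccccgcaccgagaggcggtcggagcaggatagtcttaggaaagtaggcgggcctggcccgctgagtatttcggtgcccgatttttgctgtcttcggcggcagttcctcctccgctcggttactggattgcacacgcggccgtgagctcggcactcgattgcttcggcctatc

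Promoter entries matched 7 of the 9 genes, with 10 starts, of which 4 belong to Sh3kbp1. For the 9 genes, entries on chromosome 18, which holds Synpo, were not read, and Tmprss6 had no match. The shares over all promoters below include that chromosome. Searched on both strands, GTTAAT stood at 1 of these 10 starts, in Serpina1c, where its first base lies 27 bases before the start; 6.43% of all 32851 promoters held it. The other Serpina1 copies a, b, d and e had the same letters, with the first base 21, 26, 16 and 78 bases before their starts. The annotated start of Serpina1e is thus offset from that of Serpina1c, and this offset lowers the identity of their 2 stretches. CAGATG, one of the E-box forms that basic helix-loop-helix factors such as Neurod1 bind, stood at 1 of the 10 starts, in Lrrn1 (14.4% of all promoters), and the E-box CAGCTG at 0 (13.0%). TGACG, the core of the cAMP response element, stood at 0 of the 10 (17.8%), and TATAAA at 1, a start of Sh3kbp1 (12.4%). These are matches of letters and not measured binding, and no 2 motifs overlapped. The stretches also differed in their number of CpG pairs, which was 3 in Serpina1c, 5 in Pcp4l1, 16 in Plk5 and 23 in Rasal2, against a median of 6 over all promoters.

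All 9 genes passed the minimum of 10 CPM in at least 4 libraries. In the conventionalized group 2 reached it in all 4 libraries (Serpina1c and Adcy2), 4 in some and 3 in none (Pcp4l1, Lrrn1 and Tmprss6), so these 4 and 3 passed only with the germ-free libraries. All 9 are among the genes that limma called lower in conventionalized animals, 3.76% of the 10053 tested, and among the 5.02% called lower with the littermate pair as a term. In 9 of 9 every conventionalized library lay below every germ-free library, which held for 5.88% of all genes tested. These counts are fixed by the choice of the genes and are no test of them. With 1 library left out at a time, limma called Tmprss6 in 4 of 8 fits, Serpina1c in 6 and Plk5 in 7. Each of the other members was called in 8 of 8. The log2 differences ran from -3.28 to -2.11 with a median of -2.77, beside a median of 0.32 over all tested genes. Ordered by log2 difference among the 378 lower calls, the genes took places 1 to 4, 8, 10, 14, 58 and 94. Glp1r, Nt5e, Wif1 and Adgrd1, which are not among the 9, took places 5, 6, 7 and 9, with -2.85, -2.83, -2.83 and -2.77.

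**Figure D1:**
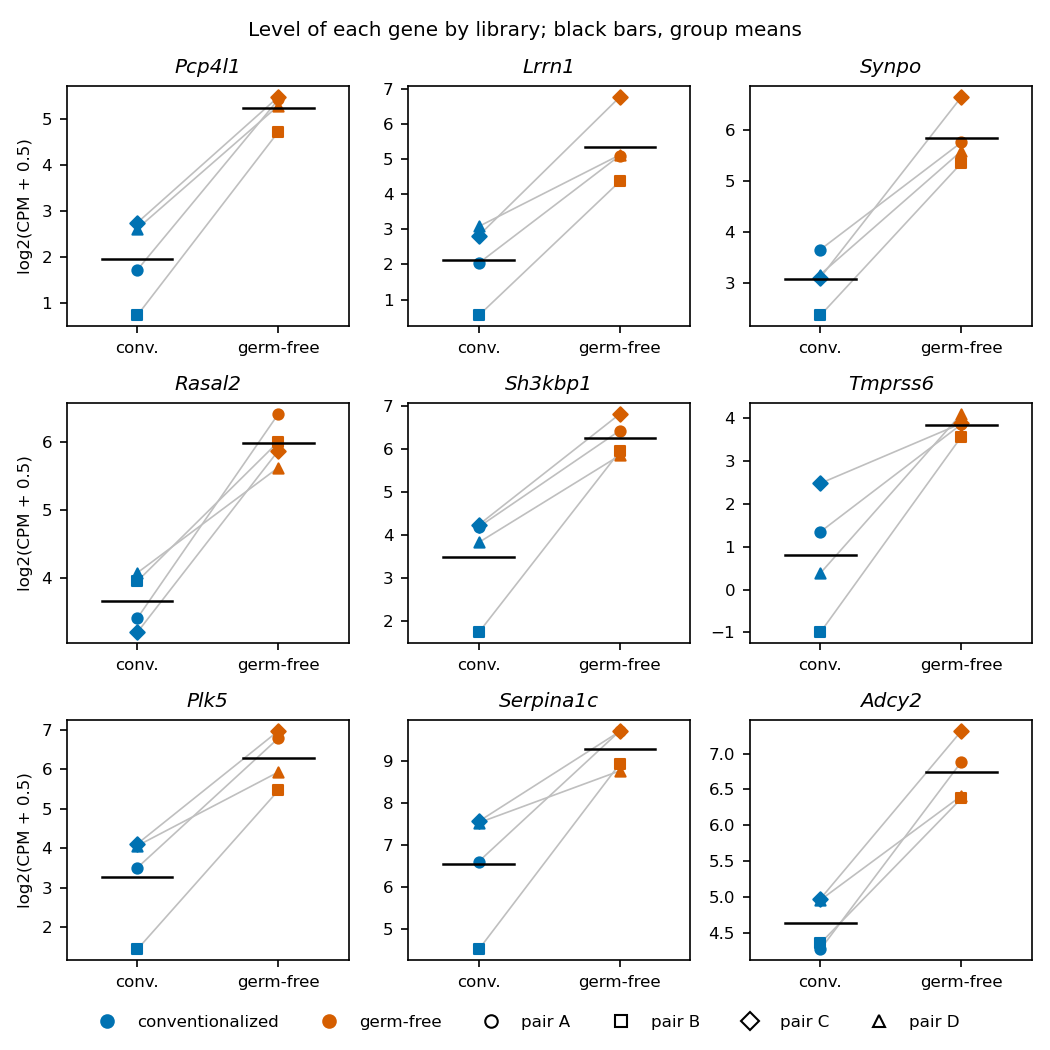
Level of each of the 9 genes in the 8 libraries, as log2(CPM + 0.5), by group, with a symbol per littermate pair, grey lines between littermates and black bars at the group means of the log2 values. In every panel the 4 conventionalized libraries lie below the 4 germ-free libraries, and for 7 of the 9 genes the conventionalized library of pair B is the lowest.

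Per length of exon, Serpina1c was by far the most abundant of the 9 in germ-free animals, with a mean of 480.6 CPM per kb (321.6 to 621.6), above Neurod1 with 154.8 and below Chga with 3857 CPM per kb. Plk5, Adcy2 and Pcp4l1 followed with 31.7, 26.3 and 23.98 CPM per kb, and Lrrn1 with 13.3. Their ranges over the 4 libraries overlapped, so their order does not exceed the spread. Sh3kbp1, Synpo, Rasal2 and Tmprss6 had 7.85, 6.31, 4.67 and 4.19 CPM per kb, each with a range that overlapped that of the next.

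Among the secreted and membrane proteins, Serpina1c is one of the mouse copies of alpha-1-antitrypsin, an inhibitor of neutrophil elastase that liver secretes into blood. Its level was 97.7, 22.5, 189.8 and 185.5 CPM in the conventionalized animals of pairs A to D, and 846.0, 492.4, 840.5 and 437.7 CPM in their germ-free littermates. The group means were 123.9 ± 79.8 and 654.2 ± 219.5 CPM (SD, n = 4 each), a log2 difference of -2.73 (SE 0.57). The groups did not overlap, but the conventionalized library of pair B was far below the other 3 of its group, and without it the log2 difference was -2.05. Within pairs the log2 difference ran from -4.42 in pair B to -1.24 in pair D.

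The Serpina1 copies lie on chromosome 12 and resemble each other, and a read may not show which copy it came from. Of the 100-base windows of Serpina1c transcripts, 69.3% also occur in another gene, against 14.4% for Serpina1e. Copies a to e summed had 304.9, 82.0, 445.1 and 438.5 CPM in the conventionalized and 1935, 1185, 1847 and 1058 CPM in the germ-free animals, a log2 difference of -2.46. Serpina1c made 27.4 to 42.6% of that sum in the first group and 41.4 to 45.5% in the second. The sum, which does not depend on how reads were split between copies, was thus lower in every conventionalized library than in any germ-free one. The pseudogene Gm8893, which shares windows with these copies, had 4.98 ± 4.42 and 27.8 ± 9.26 CPM. An antisense gene, B430119L08Rik, overlaps Serpina1c, also shares windows with it and had means of 2.80 and 12.4 CPM.

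Tmprss6 encodes matriptase-2, a membrane serine protease known from liver, where it restrains the production of the iron hormone hepcidin. It was the least abundant of the 9, with 2.05, 0, 5.08 and 0.803 CPM in the conventionalized and 14.04, 11.4, 14.2 and 16.7 CPM in the germ-free animals. Group means were 1.98 ± 2.23 and 14.1 ± 2.16 CPM (SD, n = 4 each), with a log2 difference of -3.05 (SE 0.69), the widest error of the 9. The germ-free values lay close together, and none of the conventionalized libraries reached the 10 CPM minimum. Since 1 library is listed at 0, the log2 difference depends on the pseudocount: it was -2.64 with 1 CPM and -3.81 with 0.1 CPM, and -2.45 without the library at 0.

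Lrrn1 encodes a leucine-rich repeat protein of the cell membrane. Its level was 3.60, 0.962, 6.56 and 7.96 CPM in the conventionalized and 33.8, 20.1, 108.5 and 34.3 CPM in the germ-free animals. The means were 4.77 ± 3.12 and 49.2 ± 40.1 CPM (SD, n = 4 each), and the log2 difference was -3.22 (SE 0.58). The germ-free library of pair C was far above the other 3 of its group, and the groups did not overlap.

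Adcy2 encodes an adenylyl cyclase, an enzyme that makes cAMP downstream of hormone and neurotransmitter receptors. It had 18.8, 20.0, 31.0 and 30.6 CPM in the conventionalized and 117.7, 82.5, 158.7 and 84.6 CPM in the germ-free animals. The means were 25.1 ± 6.59 and 110.9 ± 35.7 CPM (SD, n = 4 each), a log2 difference of -2.11 (SE 0.30), which was the smallest of the 9. All 8 libraries were above 10 CPM, and the groups did not overlap. Of the 100-base windows of Adcy2, 2.21% also occur in another gene, Gm35161.

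Inside the cell, Pcp4l1 encodes a small protein related to the calmodulin regulator Pcp4. Its level was 2.78, 1.15, 6.19 and 5.62 CPM in the conventionalized and 42.5, 25.9, 44.2 and 38.6 CPM in the germ-free animals, with means of 3.94 ± 2.38 and 37.8 ± 8.27 CPM (SD, n = 4 each). The log2 difference of -3.28 (SE 0.45) was the largest fall among all 10053 genes tested, at this pseudocount; with 0.1 CPM, Tmprss6 had a larger one (-3.81 against -3.46). No conventionalized library reached 10 CPM, and the 4 pairs differed by -4 to -2.68.

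Plk5 belongs to the Polo-like kinases, but unlike the others it lacks a functional kinase domain in its human form and is known from neurons and not from cell division. It had 10.9, 2.21, 16.8 and 16.2 CPM in the conventionalized and 110.1, 43.7, 125.3 and 60.6 CPM in the germ-free animals. Means were 11.5 ± 6.76 and 84.9 ± 39.0 CPM (SD, n = 4 each), with a log2 difference of -3.01 (SE 0.54). Pair B held the lowest library of both groups, and without its conventionalized library the log2 difference was -2.40.

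Synpo, Sh3kbp1 and Rasal2 encode proteins of the cell cortex and of signalling from the membrane. Synpo, an actin-binding protein of podocytes and of dendritic spines, had 12.1, 4.63, 8.08 and 8.45 CPM in the conventionalized and 53.4, 40.2, 99.5 and 47.5 CPM in the germ-free animals (log2 difference -2.76, SE 0.36). Sh3kbp1, an adaptor of Cbl ubiquitin ligases in receptor endocytosis, had 17.7, 2.81, 18.3 and 13.7 CPM against 85.9, 61.3, 112.5 and 57.4 CPM (log2 difference -2.77, SE 0.49). The germ-free library of pair C was the highest for both genes, and the conventionalized library of pair B the lowest; without the latter the log2 difference of Sh3kbp1 was -2.18.

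Rasal2, a Ras GTPase-activating protein, had 10.03, 14.9, 8.61 and 16.3 CPM in the conventionalized and 85.3, 64.0, 58.4 and 49.0 CPM in the germ-free animals (log2 difference -2.34, SE 0.30). It departed from the order of the others: the conventionalized library of pair B was the second highest of its group, and that of pair C the lowest. An antisense gene, 2810025M15Rik, overlaps it, shares 1.06% of its 100-base windows and had means of 34.4 and 66.5 CPM. The counting is not stated to use strand, so reads from the overlap cannot be assigned to either.

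Low and high libraries recurred across the 9 genes. In the conventionalized group, that of pair B was lowest for 7 genes and that of pair C highest for 6. In the germ-free group, pair B was lowest for 6 genes and pair D for 3, while pair C was highest for 6. Neurod1 had 68.2, 63.7, 97.7 and 114.0 CPM in the conventionalized and 528.5, 306.8, 560.9 and 293.6 CPM in the germ-free animals. Chga had 1897, 855.4, 3691 and 3200 CPM against 15400, 8083, 12500 and 6538 CPM. The lowest conventionalized library of Chga was again that of pair B. In such bulk samples, fewer enteroendocrine cells and less of these RNAs per cell cannot be told apart.

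The group difference was then removed, by taking each log2 level as its deviation from the mean of its group, and the 9 genes were compared with Chga and Neurod1 over the 8 libraries. Libraries were permuted within groups in an exact test over all assignments, and p-values were adjusted over the 18 relations (Benjamini-Hochberg, two-sided). One of 18 relations passed, that of Serpina1c with Chga, with r = 0.97 (exact permutation p = 0.00174, the smallest these assignments can give, adjusted 0.0312) and Spearman's rho = 0.98 (exact permutation p = 0.00174, adjusted 0.0312). Without the 2 libraries farthest from the median of Chga, the conventionalized ones of pairs B and C, r was also 0.97. Among all tested genes, 0.119% had an r with Chga at least as high. With 1 library left out at a time, r stayed between 0.96 and 0.98, but none of the 18 relations passed in these 8 fits, where fewer assignments exist. The count of 1 also depends on the scaling: 9 relations passed with upper-quartile factors and 3 with library size only. With pair means removed as well, r was 0.95 and adjusted p 0.375, where the smallest p that 24 orders of the pairs can give is 0.0417.

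Next to Serpina1c, 5 genes had r of 0.76 to 0.94 with Chga, none of which passed. Plk5 had r = 0.94 and rho = 0.90 (exact permutation p = 0.0122 for both, adjusted 0.0625 and 0.0972), with r = 0.84 without the libraries farthest from the median. Pcp4l1 had r = 0.90 and rho = 0.86 (exact permutation p = 0.0226 for both, adjusted 0.0625 and 0.0972), and Sh3kbp1 had r = 0.85 and rho = 0.76 (exact permutation p = 0.0295 and 0.0486, adjusted 0.0625 and 0.0972). Without these 2 libraries r fell to 0.68 and 0.54. The r of Sh3kbp1 thus rested in part on conventionalized libraries B and C.

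Lrrn1 had r = 0.78 and rho = 0.57 with Chga (exact permutation p = 0.0417 and 0.184, adjusted 0.075 and 0.255), and r = 0.54 without the same 2 libraries. Adcy2 had r = 0.76 and rho = 0.62 (exact permutation p = 0.0538 and 0.132, adjusted 0.0881 and 0.198), and r = 0.83 without them. Tmprss6 had r = 0.67 and rho = 0.40 (exact permutation p = 0.208 and 0.472, adjusted 0.268 and 0.531). Its r was -0.48 without the 2 libraries, so it rested on them. Synpo had r = 0.55 and rho = 0.55 (exact permutation p = 0.184 and 0.201, adjusted 0.255 and 0.259), and r = 0.28 without them.

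Rasal2 stood apart from the other 8 genes in its relation with Chga. Its r with Chga was -0.01 and its rho 0.02 (exact permutation p = 0.984 and 0.979, adjusted 0.984 and 0.979), and 42.8% of all tested genes had an r at least as high. Without these 2 conventionalized libraries, B and C, however, its r was 0.84. Pair B, where Chga and 7 of the 9 genes were lowest, and pair C, where Chga was highest in the conventionalized group, are the libraries in which Rasal2 ran the other way. With Neurod1, the r of Rasal2 was 0.30, above the 0.26 of Tmprss6. With pair means removed as well it was 0.96, where no relation passed.

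**Figure D2:**
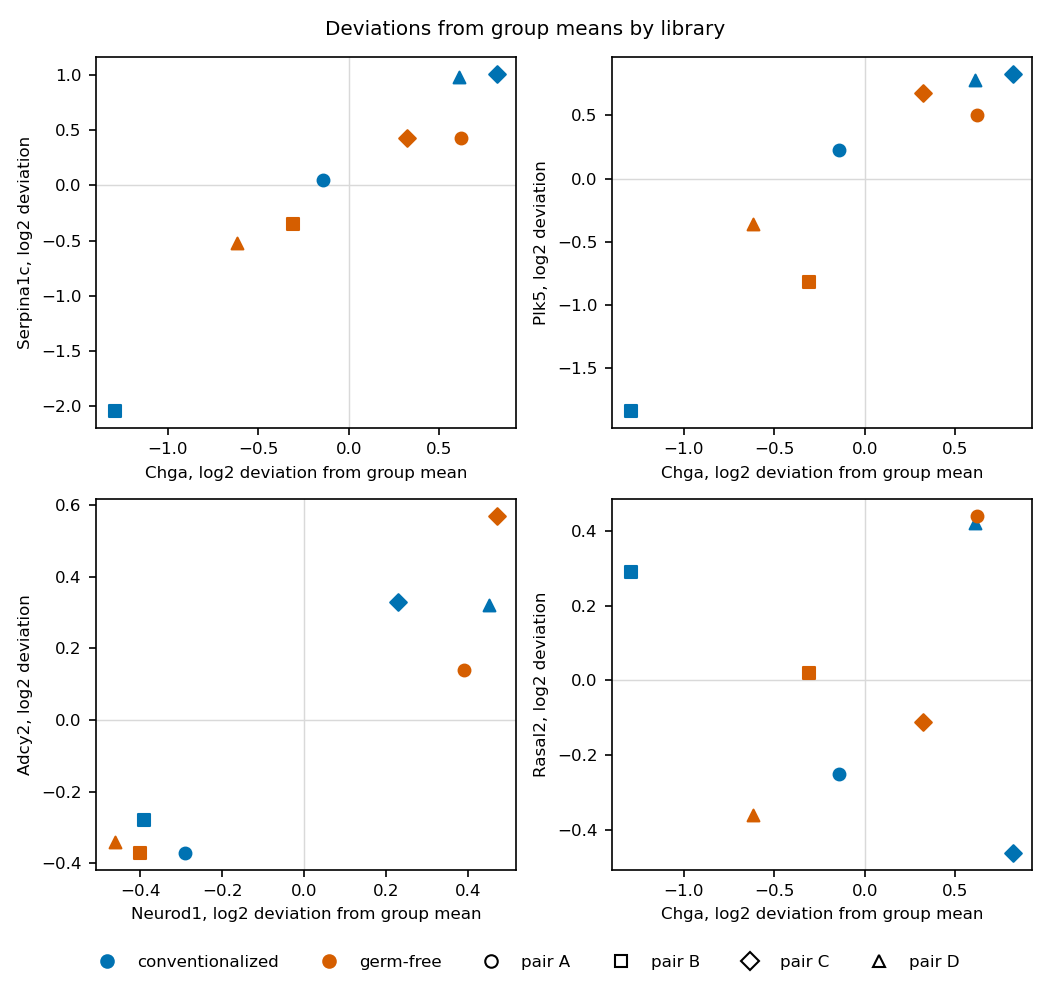
Deviation from the group mean, in log2 units, in the 8 libraries (colour, group; symbol, littermate pair), of Serpina1c, Plk5 and Rasal2 against Chga and of Adcy2 against Neurod1. Serpina1c follows Chga with r = 0.97, Rasal2 shows no slope with r = -0.01, conventionalized library B is farthest to the left in the 3 panels with Chga, and the points of Adcy2 and Neurod1 form 2 sets of 4.

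For Neurod1 the deviations fell into 2 sets of 4 libraries, from -0.46 to -0.29 and from 0.23 to 0.47, with none between. Those of Chga fell into the same 2 sets, from -1.29 to -0.14 and from 0.32 to 0.82, with more spread within each. The r between the 2 references was 0.84, so relations with them are not independent, and those with Chga partly compare the same sets. A correlation over such sets mostly compares the sets, and 4 libraries are too few to test it within each. The r values with Neurod1 are therefore a description. They were 0.94 for Adcy2, 0.79 for Plk5, 0.78 for Lrrn1, 0.75 for Serpina1c and 0.72 for Pcp4l1. Sh3kbp1 had 0.59, Synpo 0.55, Rasal2 0.30 and Tmprss6 0.26. Adcy2 was thus closest to Neurod1, as Serpina1c was to Chga, and only 0.159% of all tested genes had an r with Neurod1 at least as high. Over all tested genes the median r was -0.18 with Neurod1 and -0.07 with Chga.

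**Figure D3:**
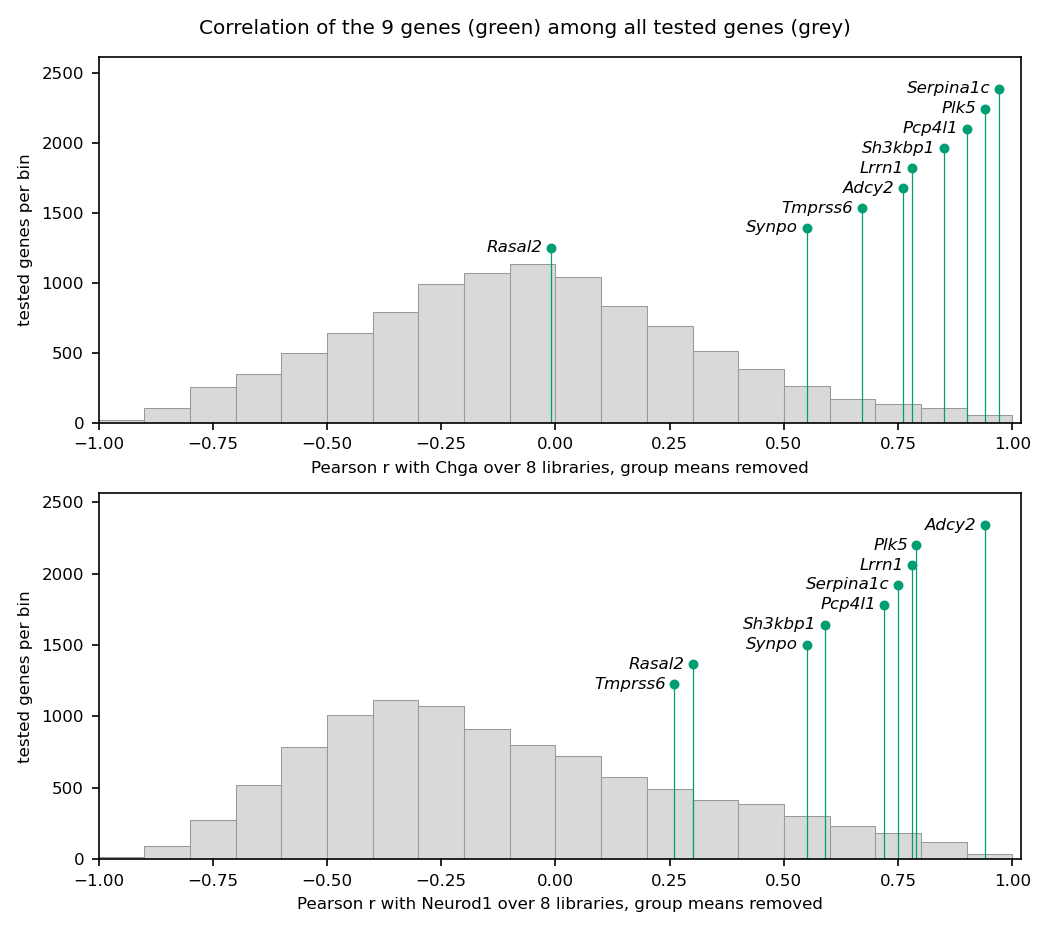
Pearson r over the 8 libraries, after removal of group means, of each of the 9 genes (green) with Chga, above, and Neurod1, below, on the number of tested genes per bin of r (grey). All 18 points lie right of the medians of all tested genes, -0.07 for Chga and -0.18 for Neurod1, and Serpina1c with Chga at 0.97 is the farthest right.

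Among themselves, the 9 genes form 36 pairs, with r from -0.71 to 0.97, a median of 0.73 and 29 above 0. All 28 pairs without Rasal2 were above 0, from 0.30 (Tmprss6 with Adcy2) to 0.97 (Plk5 with Serpina1c), with a median of 0.78. The 8 pairs with Rasal2 ran from -0.71 (Tmprss6) to 0.11 (Adcy2), with a median of -0.23. These values share the 8 libraries and the scaling of each, and carry no test.

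**Figure D4:**
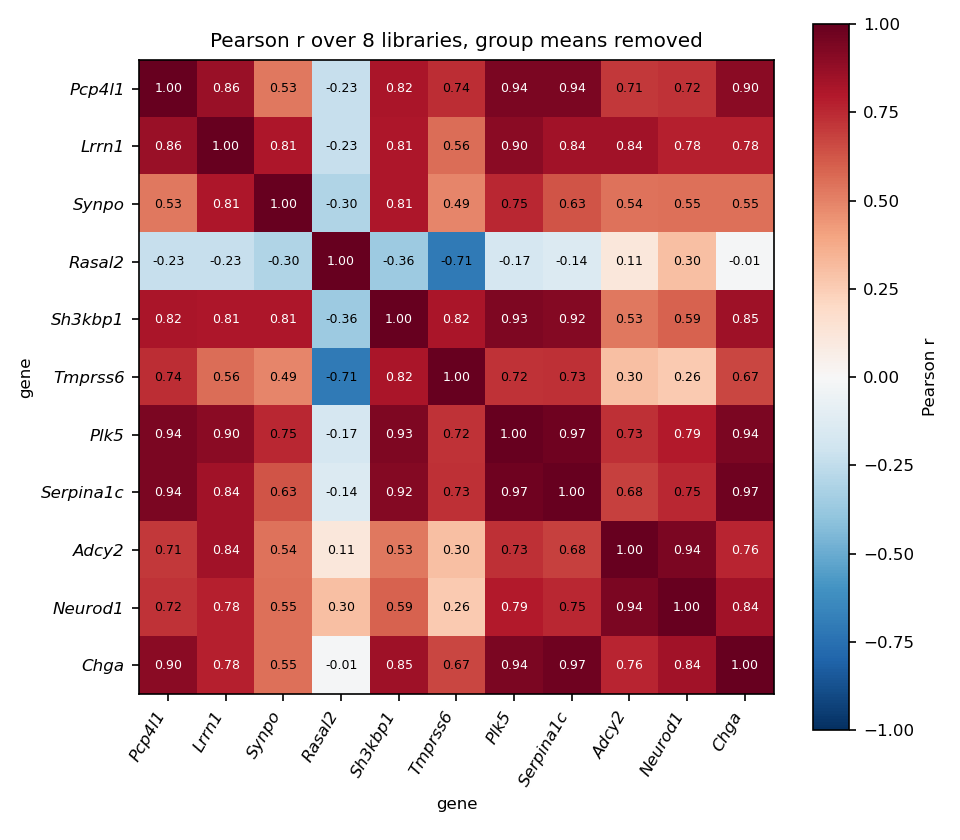
Pearson r between the deviations of the 9 genes, Neurod1 and Chga from their group means over the 8 libraries, as a colour scale from -1 to 1. Serpina1c, Plk5, Pcp4l1 and Chga hold high values among them, from 0.90 to 0.97, and the row of Rasal2 holds the negative values, down to -0.71 with Tmprss6.

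The difference between the groups was also set against that of the references. Per 1000 CPM of Chga, Pcp4l1 had 1.35 to 1.76 CPM in the conventionalized and 2.76 to 5.91 CPM in the germ-free libraries. Per 100 CPM of Neurod1 it had 1.81 to 6.34 and 7.88 to 13.2 CPM. It was the only one of the 9 whose groups lay apart on either scale. The share of all tested genes with groups apart on these scales was not computed. Since the 9 were chosen by their fall, this count is no test of them. For Adcy2, in contrast, the log2 difference minus that of Chga was 0.16 and minus that of Neurod1 0.17, and for Rasal2 both were -0.07. The other 6 had values of -0.95 to -0.46, with groups that overlapped. Levels of Chga, Neurod1 and the other enteroendocrine markers moved with the difference between the groups, and their part in it was not tested.

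For each of the 9 genes, the 3 tested genes with the highest r of deviations over the 8 libraries were taken as its nearest, which gave 26 distinct genes. Of these, 20 were lower in conventionalized animals by limma (3.76% of all tested genes were), 0 higher (1.16%) and 6 not called. The nearest to Plk5 was Tph1 (r = 0.996), the enzyme of serotonin synthesis in enterochromaffin cells, with 397.8 and 1906 CPM. Serpinf2, a plasmin inhibitor, came next with 0.983. Nearest to Serpina1c were Serpina1e (0.994), 1810006J02Rik (0.988) and F2, which encodes prothrombin (0.981). The r between Serpina1 copies may carry shared reads.

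The somatostatin receptor gene Sstr5 (0.972) stood beside Adcy2, after Meis3 (0.982) and before Kcnh6 (0.969). Npy1r, a receptor of neuropeptide Y and peptide YY, stood beside Sh3kbp1 (0.965), after Trim15 and Prss30 (both 0.991). Lrrn1 had Syn2 (0.980), a protein of synaptic vesicles, Man1c1 (0.977) and Acta1 (0.970), and Pcp4l1 had Gm32585 (0.993), Serpina1e and Fam43a (both 0.970). Tmprss6 had the lowest values, with Klhl32 at 0.903, Slc5a4b at 0.870 and Crip2 at 0.847.

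Synpo had Trp53inp2 (0.992), Stim2 (0.983) and Smad6 (0.950) as its nearest. Those of Rasal2 were Crebbp (0.962), Spns1 (0.961) and Plekhb1 (0.960), none of which was called, with log2 differences of 0.05, 0.20 and -0.66. Rasal2 was the only one of the 9 with no called gene among its 3 nearest.

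Related genes and pathway partners of the 9 were taken from lists by name and function. Of 112 such genes, 63 were tested, and 9 of them (14.3%, against 3.76% of all tested genes) were lower and 2 (against 1.16%) higher in conventionalized animals, with a median log2 difference of 0.15 beside 0.32 for all. Adcy1, Serpina1e, Prkar1b and Tmprss7 passed in 8 of 8 fits that each left out 1 library, Gnai1 in 6, Serpina1a, Serpina1b and Serpina1d in 5, Gnao1 and Plk1 in 3 and Plk4 in 2. Of the 9 lower calls, 4 are the other Serpina1 copies. These share 14.4 to 42.8% of their 100-base windows with other genes, Serpina1c among them, so their calls are not independent of its choice. Gnai1 and Tmprss7 reached 10 CPM in 0 conventionalized libraries, Adcy1 in 1, and Gnao1, Serpina1a and Serpina1d in 3. These 6 thus passed the minimum only with the germ-free libraries. Serpina1e had 95.9 ± 54.6 and 495.7 ± 136.2 CPM (log2 difference -2.58, adjusted p = 0.00787), and Serpina1a 20.8 ± 11.2 and 84.8 ± 30.2 CPM (-2.14, adjusted p = 0.0163), both SD with n = 4 per group and limma. Serpina1b and Serpina1d differed by -1.76 and -2.58 (limma adjusted p = 0.022 and 0.0224). The other 7 genes of the Serpina list did not reach 10 CPM in enough libraries.

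In the cAMP pathway, Adcy1, the calmodulin-stimulated cyclase, was lower, with 10.6 ± 4.39 and 48.9 ± 25.7 CPM (SD, n = 4 each, log2 difference -2.07, limma adjusted p = 0.0111). Adcy8 had a log2 difference of -1.15 with a limma adjusted p of 0.0619, or 0.0247 with the pair as a term, and Adcy6 one of 0.19 (adjusted p = 0.712). The other 6 cyclases were below the minimum. Of 19 tested genes beyond the cyclases, 3 were lower and 0 higher. These were Gnai1 (-2.38, limma adjusted p = 0.0189) and Gnao1 (-1.54, 0.0299), alpha subunits of inhibitory G proteins, and Prkar1b (-1.48, 0.00957), a regulatory subunit of protein kinase A. Gnas, which encodes the stimulatory alpha subunit, with 611.3 ± 134.7 and 545.4 ± 109.7 CPM, and Prkar1a, with 283.0 ± 77.1 and 425.1 ± 110.6 CPM, did not pass.

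**Figure D5:**
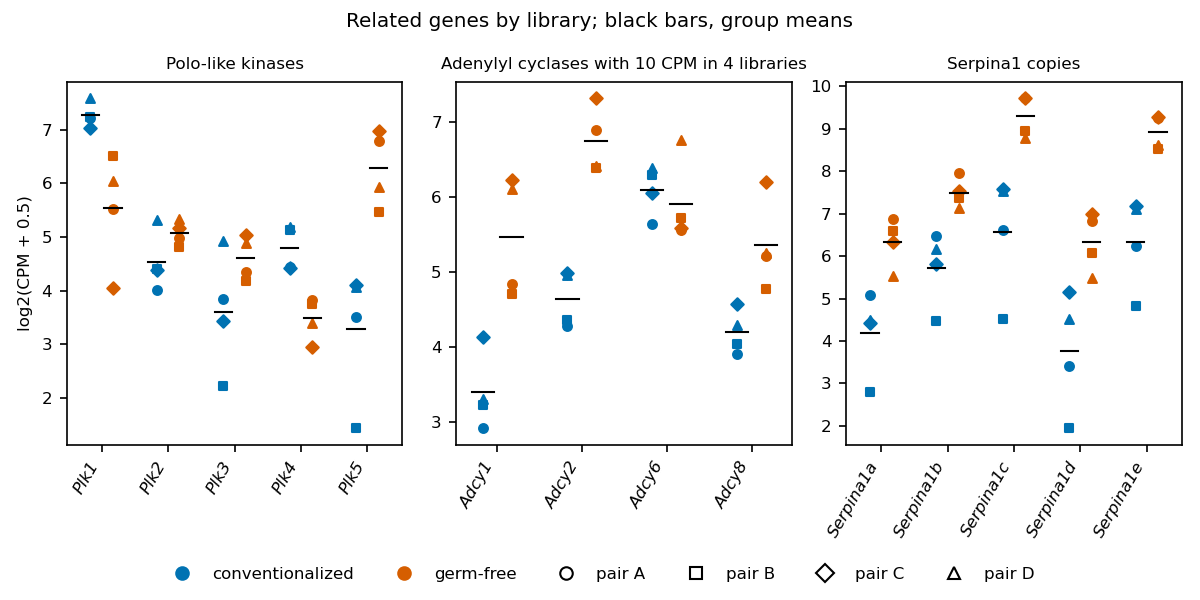
Levels as log2(CPM + 0.5) in the 8 libraries for the Polo-like kinases, the tested adenylyl cyclases and the Serpina1 copies a to e (colour, group; symbol, littermate pair; black bars, means of the log2 values). All 4 conventionalized libraries lie above the germ-free ones for Plk1 and Plk4 and below them for Plk5, Adcy1, Adcy2, Adcy8 and the 5 Serpina1 copies.

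Among the Polo-like kinases related to Plk5, 2 of 4 were called, both in the other direction. Plk1, a kinase of mitosis, was higher in conventionalized animals, with 155.4 ± 26.2 against 54.4 ± 31.6 CPM (SD, n = 4 each, log2 difference 1.74, limma adjusted p = 0.0355). Plk4, a kinase of centriole duplication, was higher too, with 28.2 ± 8.21 against 10.98 ± 2.95 CPM (1.32, adjusted p = 0.0333). Without TMM scaling the adjusted p of Plk4 was 0.0558. Plk2 and Plk3 had -0.55 and -1 and did not pass. Of 12 stem cell markers beside the mitotic kinases, 1, Lgr5, was higher (1.94, limma adjusted p = 0.0397), against 1.16% of all tested genes. With the pair as a term 5 were higher, against 8.08%. The 12 markers had a median log2 difference of 1.36. Their sum was 5396 to 10660 CPM in the conventionalized and 892.7 to 5564 CPM in the germ-free animals, and their part in the result was not tested.

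The serine protease Tmprss7 was lower, with 7.11 ± 1.83 and 28.6 ± 8.50 CPM (SD, n = 4 each, log2 difference -1.91, limma adjusted p = 0.00836), while Tmprss2 and Tmprss4, which the epithelium expresses widely, had 0.32 and 0.96 and did not pass. Genes of hepcidin and iron handling gave 0 calls among the 8 tested besides Tmprss6. The ferritin genes Fth1 and Ftl1, the most abundant of them, had 0.92 and 0.27. Hepcidin itself (Hamp) was near 0 in both groups, with means of 0.623 and 1.98 CPM. Slc11a2, the iron importer of the epithelium, had a log2 difference of 1.18 (limma adjusted p = 0.101, or 0.0372 with the pair as a term).

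No relative of Sh3kbp1, Rasal2, Synpo or Pcp4l1 was called without the pair as a term. The most abundant of those tested had log2 differences of 0.63 (Sh3gl1), -0.92 (Rasa4), 0.15 (Hras), 0.53 (Actn4) and -0.31 (Actn1). Cd2ap, the closest relative of Sh3kbp1, had 21.4 ± 4.10 and 15.6 ± 6.52 CPM (SD, n = 4 each, log2 difference 0.51, limma adjusted p = 0.311). With the pair as a term, Cblc (1.11, adjusted p = 0.0783, then 0.0387) and Rasa3 (1.21, 0.111, then 0.0235) passed as higher, where this fit called 8.08% of all tested genes higher. The namesakes Pcp4, Lrrn2, Lrrn3, Lrrn4, Synpo2, Synpo2l, Rasal1 and Rasal3 were below the minimum for testing. Rasal1 had 1.77 ± 0.258 and 9.17 ± 3.97 CPM, and Lrrn3 1.24 ± 1.22 and 8.80 ± 3.99 CPM, with no overlap between the groups in either.

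Markers of other cell types were read beside these results. Over all tested genes, limma called 3.76% lower and 1.16% higher, or 5.02% and 8.08% with the pair as a term. Of 9 tuft cell markers tested, 0 were called, with a median log2 difference of -0.93 and sums of 92.6 to 841.4 CPM in the conventionalized and 375.6 to 965.4 CPM in the germ-free animals. Of 11 enterocyte markers tested, 3 were lower, Sis, Slc15a1 and Krt20, with log2 differences of -1.89, -2.36 and -1.82 (limma adjusted p = 0.0132, 0.00587 and 0.0317). Their list had a median of 0.50 and sums of 966.3 to 3859 and 2043 to 5384 CPM. Of 9 Paneth cell markers 1 was higher, Mptx2 (3.11, limma adjusted p = 0.037), and of 8 goblet markers 0 were called, with medians of 0.87 and 0.14. Paneth sums were 6687 to 10210 and 2682 to 16510 CPM. Of 9 markers of neurons or glia, where Lrrn1, Synpo, Plk5 and Adcy2 are also known, 1 was tested and was called lower only with the littermate pair as a term, and 3 were at 0 in at least 1 library. Their sum was 20.9 to 30.4 CPM in the conventionalized and 38.4 to 81.1 CPM in the germ-free animals. Of 7 markers of stroma or endothelium, 2 were tested and 1, Pecam1, which encodes the CD31 that the sort removed, was lower (4.999 ± 3.34 and 19.9 ± 5.69 CPM, SD, n = 4 each), with sums of 4.48 to 28.3 and 30.3 to 60.9 CPM. Pecam1 reached 10 CPM in 0, Slc15a1 in 1 and Ret, the tested marker of neurons or glia, in 3 conventionalized libraries. These passed the minimum only with the germ-free libraries. Mptx2 reached it in 2 germ-free libraries and passed only with the conventionalized ones. The part of these cell types in the levels of the 9 genes was not tested.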

How the data were processed

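RNA was measured in 8 libraries, made from 10 ng of RNA per sample with the SMARTer Ultra Low Input and Nextera XT kits and read as 100 bp single ends, 4 libraries pooled per lane, per the labels' protocols. No source used here gives the lane of a library. The build was mm10, per the submitters' processing notes, which name DESeq2 1.12.4, R 3.3.1, STAR 2.4.2a and Trimmomatic 0.36. The authors used Salmon and edgeR, and left out transcripts under 10 CPM, per the series' design text. What the authors deposited is, for each gene and library, a scaled signal and not raw counts. Among 27909 genes with 1 transcript, 99.8% of values above 0 were whole multiples (within 0.02) of a step per library, from 0.736 to 1.348. Among 20149 genes with several transcripts only 22.9% were, so count tests were not run. Approximate reads are the deposited total divided by the step. Gene names came from GENCODE M21 for 48058 of 48440 genes. CPM were computed here with TMM factors (log ratios trimmed by 30%, intensities by 5%), filtered at 10 CPM in 4 libraries and fitted as log2(CPM + 0.5) with limma 3.58.1 (trend and robust) in R 4.3.3, with Benjamini-Hochberg adjustment over 10053 genes and a threshold of 0.05. The scripts were tested on simulated data.

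The 9 genes and all lists were chosen with earlier results of these data known. Named were the 9 genes, Neurod1 and Chga, the 3 nearest genes of each by r, relatives of the 9 and, in each list of relatives, every called gene or else the 2 most abundant. One result is not reported here. Genes at places 5 to 9 of the order of lower calls, called markers, Sox9, Gm8893 and the genes named with a changed call were named after their values were seen. So were Hpx, Fga and the genes named because they overlap or share windows with one of the 9. Littermate pairs come from the labels. The deviations of same-pair libraries correlated at 0.14, -0.16, 0.31 and -0.01 in pairs A to D, and the pair was a term in an alternative fit. Other alternatives were scaling by library size or upper quartile, pseudocounts of 1 and 0.1, a filter at 1 CPM or none, Spearman's rho, and leaving out libraries. Sequences are RefSeq's, in GRCm38.p6. The number of animals limits the precision.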

Additional observations from a re-analysis of the deposited data

Results flagged for a closer look

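Lrrn1 had 108.5 CPM in pair C's germ-free library, far from the other 3 germ-free libraries, which had 20.1 to 34.3 CPM. The gap was 0.84 of the range of the group, above Dixon's 95% critical value for 4 libraries. This was taken on CPM and not on log2 values, and it depends on that scale. On the log2 scale the deviation of this library was 1.43, against -0.97 to -0.22 in the others, and the gap is a smaller part of the range. It was the 1 such case in 22 groups looked at (11 genes in 2 groups), and chance alone gives about 1 in 20. The same library was the highest of its group for 6 of the 9 genes and correlated least with its group over all genes, with a median r of 0.792. The cause was not tested.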

How the results depend on the processing

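The log2 differences of the 9 genes, which the choice of the genes fixes, had a median of -2.77, and of -3.06 to -2.43 without 1 library; that of Tmprss6 was -3.81 with a pseudocount of 0.1 (adjusted p 0.0563). Of the 18 relations with Chga and Neurod1, 1 passed, against 9 with upper-quartile scaling, 3 with library size only, 0 with the littermate pair as a block, 0 without both odd libraries (germ-free of pair C, conventionalized of pair A), and 0 to 0 without each library in turn. Genes called higher numbered 117, against 263 with upper-quartile factors, 45 with no filter, 812 with the pair as a block, 263 without both odd libraries and 15 to 461 without 1 library (15 without conventionalized B or D, 461 without germ-free B). Genes called lower numbered 378, or 173 to 492 without 1 library (173 without germ-free A, 179 without conventionalized B). Higher calls were 23.6% of all calls with TMM, 19.2% with library size and 39.2% with upper quartile, and the median log2 difference of all genes was 0.32, 0.09 and 0.34. Relatives called higher were 2, against 1 with library size only, 1 with no filter, 5 with the block and 0 to 4 without 1 library; those called lower were 9, or 4 (without germ-free A) to 10 without 1 library and 9 to 11 otherwise. The block changed no call among the relatives other than those given. Reversed in sign were r of Rasal2 with Chga (0.02 with library size only, 0.00 with a pseudocount of 1, 0.50 with the block, 0.02 as rho, -0.27 to 0.47 without 1 library), Tmprss6 with Neurod1 (-0.50 with the block, -0.02 as rho, -0.12 to 0.40 without 1 library) and Synpo with Chga (-0.13 with the block). The cause was not tested, except that leaving libraries out leaves fewer assignments.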

Other observations

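Since Serpina1c, Tmprss6, F2 and Serpinf2 are best known from liver, a list of 10 genes of proteins that liver secretes was read beside them. Only Trf, transferrin, was abundant enough to be tested, with 30.2 ± 4.77 CPM in the conventionalized and 102.6 ± 28.2 CPM in the germ-free animals (SD, n = 4 each, log2 difference -1.72, limma adjusted p = 0.00587). Albumin (Alb) had 1.22 and 1.56 CPM and the fibrinogen gene Fgb 0.245 and 0.208 CPM, and 5 of the 10 were at 0 in at least 1 library. The most abundant liver proteins were thus near 0 in both groups, while Serpina1c, Serpina1e and Trf were not.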
